A study of Mus musculus with 8 samples.

Results

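The calpains and calpastatin of muscle are described here at the level of their transcripts. The 8 genes (Capn1, Capn2, Capn3, Capn5, Capn6, Capn7, Capns1 and Cast) were chosen by name, as members of the calpain system, and all 8 are among the 15433 genes of the deposited table. RNA was sequenced from whole gastrocnemius (GST) muscle of 6-month-old female mice, 4 STIM1+/D84G mice and 4 WT mice, and there are 4 libraries of each genotype. STIM1+/D84G mice carry, in every tissue, 1 copy of Stim1 with a point mutation in the Ca2+-sensing EF hand of STIM1. Their libraries are labelled SAX, and WT mice were C57BL/6 mice matched for age and sex. The table holds no allele information, so the genotype of a library could not be checked against it.

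Calpains are intracellular cysteine proteases that cut their targets at a few places rather than degrade them, and the classical members need Ca2+ to act. Capn1 and Capn2 encode the large subunits of µ-calpain and m-calpain, each of which pairs with the small subunit encoded by Capns1, and calpastatin, encoded by Cast, is their dedicated inhibitor. Capn3 encodes the muscle calpain, which is held on titin in the sarcomere and whose loss in humans causes a limb-girdle muscular dystrophy. Capn5, Capn6 and Capn7 encode calpains that lack the EF-hand domain of the classical members. The comparison of STIM1+/D84G with WT muscle asks how transcripts of these proteases and of their inhibitor stood in a muscle with an altered Ca2+ sensor.

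The 6 calpains Capn1, Capn2, Capn3, Capn5, Capn6 and Capn7 differ at the active site, which bears on the member that changed most. The coding sequences around the codon aligned with the catalytic cysteine codon of Capn1 are shown 5′ to 3′, with that codon in capitals and 7 codons on each side, from the annotated mouse transcripts (GENCODE vM21, GRCm38).
Capn1: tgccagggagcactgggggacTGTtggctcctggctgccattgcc
Capn2: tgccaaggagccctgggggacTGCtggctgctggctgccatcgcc
Capn3: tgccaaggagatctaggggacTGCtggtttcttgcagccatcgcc
Capn5: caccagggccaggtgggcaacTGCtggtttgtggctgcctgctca
Capn7: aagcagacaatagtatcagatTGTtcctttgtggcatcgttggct
Capn6: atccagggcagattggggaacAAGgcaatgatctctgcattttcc
The codon is number 115 in Capn1, 105 in Capn2, 129 in Capn3, 81 in Capn5 and Capn6 and 290 in Capn7. It encodes cysteine in all but Capn6, where it encodes lysine, and Capn6 is known as a calpain without protease activity. Of the 45 bases, 40 are identical to those of Capn1 in Capn2, 35 in Capn3, 27 in Capn5, 24 in Capn6 and 21 in Capn7.

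Most of the 8 transcripts differed between the genotypes, and not in 1 direction. Of the 8 genes, Capn2, Capns1, Capn5 and Capn6 were higher and Capn1, Capn3 and Capn7 were lower in STIM1+/D84G muscle, while Cast did not pass the test (limma on log2 of the normalized count plus 0.1, Benjamini-Hochberg adjustment over all genes, threshold 0.05). The normalized count is the read count of a gene divided by a size factor of its library. Among all genes 49.4% passed in either direction, 25.0% as higher and 24.4% as lower, and 7 of these 8 genes are 87.5%. The 3 other calpain genes in the table, given below, did not pass, so the share over all listed calpain genes is lower than 87.5%. The groups did not overlap for 7 of the 8 genes, against 46.0% of all genes, 23.0% as higher and 23.0% as lower. The median absolute log2 fold change was 0.41 over the 8 genes and 0.28 over all genes, and the median signed value was 0.18 over the 8 genes and 0.013 over all genes.

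**Figure D1:**
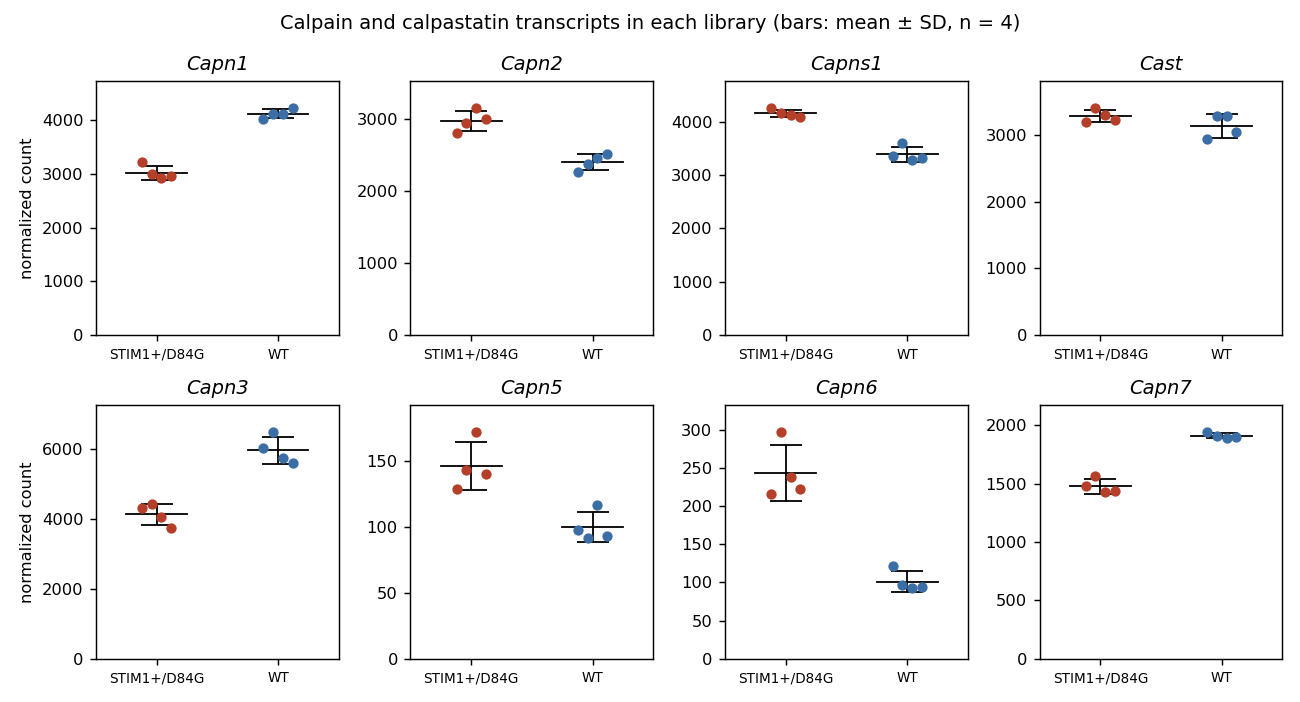
Normalized counts of the 8 genes in each library (vertical axes, each starting at 0), with STIM1+/D84G libraries on the left and WT libraries on the right of each panel; points are libraries and bars the mean ± SD (n = 4). The groups are apart in every panel but that of Cast, with STIM1+/D84G higher for Capn2, Capns1, Capn5 and Capn6 and lower for Capn1, Capn3 and Capn7.

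The large subunits of the classical calpains moved in opposite directions. Capn1 (mm10, chr19:5988545-6015897, minus strand) had 3216, 2993, 2914 and 2950 normalized counts in STIM1+/D84G muscle, against 4016, 4103, 4119 and 4218 in WT muscle. Every STIM1+/D84G library lay below every WT library. Its mean was 3018 ± 136 in STIM1+/D84G and 4114 ± 83.1 in WT muscle (SD, n = 4 each), a log2 fold change of −0.45 (SE 0.04, limma adjusted p = 7.5e-06). Capn2 (chr1:182467260-182517608, minus strand) had 2799, 2939, 3144 and 2992 normalized counts in STIM1+/D84G muscle, against 2266, 2370, 2457 and 2513 in WT muscle. Here every STIM1+/D84G library lay above every WT library. Capn2 averaged 2968 ± 143 in STIM1+/D84G and 2402 ± 108 in WT muscle (SD, n = 4 each), a log2 fold change of 0.31 (SE 0.05, limma adjusted p = 0.00032).

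The small subunit that both large subunits pair with was also higher. Capns1 (chr7:30186936-30198811, minus strand) had 4251, 4163, 4121 and 4093 normalized counts in STIM1+/D84G muscle, against 3354, 3592, 3276 and 3321 in WT muscle. The STIM1+/D84G libraries were within a narrow range, and the lowest of them stood above the highest WT library, replicate 2. The log2 fold change was 0.30 (SE 0.04, limma adjusted p = 9.8e-05).

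The inhibitor did not pass. Cast (chr13:74692368-74808810, minus strand) had 3193, 3400, 3297 and 3226 normalized counts in STIM1+/D84G muscle, against 2937, 3287, 3280 and 3042 in WT muscle. The groups overlapped, since WT replicates 2 and 3 lay inside the STIM1+/D84G range. The log2 fold change was 0.065 (95% interval −0.035 to 0.17, limma adjusted p = 0.26), and a two-sided exact permutation test over the 70 assignments of 4 against 4 gave p = 0.23. The call of Cast depended on the scaling of the libraries. It passed as higher when libraries were scaled to the total of all but the 50 most abundant genes (0.19, limma adjusted p = 0.0035), by quantiles (0.21, adjusted p = 0.0016) or to the sum of every listed gene (0.41, adjusted p = 1.8e-05).

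The muscle calpain was lower. Capn3 (chr2:120456019-120504913, plus strand) had 4298, 4406, 4049 and 3730 normalized counts in STIM1+/D84G muscle, against 6014, 6472, 5736 and 5579 in WT muscle. The highest STIM1+/D84G library, replicate 2, was below the lowest WT library, replicate 4. Capn3 averaged 4121 ± 300.1 in STIM1+/D84G and 5950.4 ± 392 in WT muscle (SD, n = 4 each), a log2 fold change of −0.53 (SE 0.06, limma adjusted p = 4.0e-05). Capn3 is transcribed in mature fibers, and in RNA of whole muscle fewer cells of a type and less RNA per cell cannot be told apart.

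Because Capn3 encodes the muscle calpain, the sequence before its main start is shown. The RefSeq promoter table (GRCm38.p6) had windows for 7 of the 8 genes, 12 in all, each with 250 bases before and 50 after an annotated start. Among them is another Capn3 start, 13330 bases from the start of the main annotated transcript, which is not shown. The counts of Capn3 do not tell these starts apart. The stretch at chr2:120463343-120463542 on the plus strand covers bases 250 to 51 before the Capn3 start that lies 14 bases from the start of the main annotated transcript, and capitals mark a match to the MEF2 consensus, the motif of a family of muscle transcription factors.
Capn3: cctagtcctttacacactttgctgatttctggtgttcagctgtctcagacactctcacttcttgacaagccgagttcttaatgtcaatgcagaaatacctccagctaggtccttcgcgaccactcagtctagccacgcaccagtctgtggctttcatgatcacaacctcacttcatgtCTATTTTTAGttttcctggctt
The match begins 72 bases before the start and was the only MEF2 consensus match, on either strand, in the 12 windows. Of all 32851 promoter windows of this length, 3.19% held such a match. E-boxes (CANNTG), TATA boxes and GC boxes were sought as well. The same Capn3 window held 2 E-boxes, a motif found in 72.3% of all windows, and no TATA box or GC box. A match of letters is a description and not a binding site.

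Capn6 had the largest change of the 8 genes, from a low level. Capn6 (chrX:143802231-143827414, minus strand), which carries the lysine codon shown above, had 215, 297, 238 and 223 normalized counts in STIM1+/D84G muscle, against 121, 96.4, 92.2 and 94.1 in WT muscle. Its lowest STIM1+/D84G library was above WT replicate 1, which stood apart from the other WT libraries. The log2 fold change was 1.27 (SE 0.12, limma adjusted p = 1.3e-05), and its absolute value lay at percentile 91.8 of all genes, so 1272 genes changed by more. Capn6 is known in the mouse as an embryonic muscle gene whose product binds microtubules.

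Capn5, a calpain with a broad expression, was higher as well. Capn5 (chr7:98121559-98178274, minus strand) had 129, 143, 172 and 140.2 normalized counts in STIM1+/D84G muscle, against 97.2, 91.6, 116 and 93.1 in WT muscle. The third replicate was the highest library of each genotype, and the groups did not overlap. The log2 fold change was 0.55 (SE 0.12, limma adjusted p = 0.0024). Capn5 and Capn6 rested on fewer reads than the others, between 76 and 182 reads per library for Capn5 and between 80 and 379 for Capn6, against at least 1479 for each other gene of the 8.

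Capn7, whose product binds the ESCRT-III membrane-remodelling machinery, was lower. Capn7 (chr14:31336638-31371986, plus strand) had 1482, 1565, 1426 and 1434 normalized counts in STIM1+/D84G muscle, against 1943, 1912, 1887 and 1903 in WT muscle. The WT libraries were close to each other, and all 4 were above the STIM1+/D84G libraries. The log2 fold change was −0.37 (SE 0.04, limma adjusted p = 2.6e-05). The call of Capn7 was lost when libraries were scaled to the sum of every listed gene (−0.024, limma adjusted p = 0.58).

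**Figure D2:**
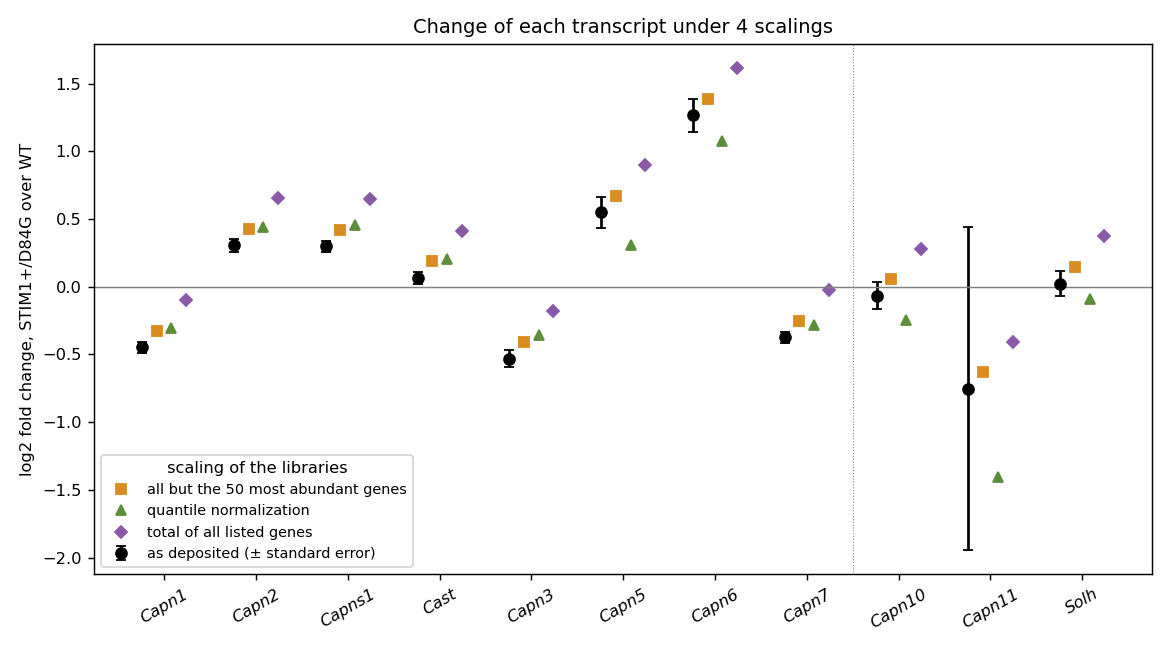
Log2 fold change of STIM1+/D84G over WT (vertical axis) for the 8 genes and, right of the dotted line, the 3 other calpain genes of the table; black points are the values with the deposited scaling ± standard error and coloured points the values under 3 other scalings. Capn2, Capns1, Capn5 and Capn6 stay above 0 and Capn1, Capn3 and Capn7 below 0 under all 4, Capn7 at −0.024 with the total.

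The libraries differed between genotypes in the sum of their values. The deposited values summed to between 26080391 and 27436601 in STIM1+/D84G libraries and between 33536636 and 34589111 in WT libraries, although reads in listed genes overlapped, with 27481177 to 35018732 in STIM1+/D84G and 28698738 to 33661535 in WT libraries. A scaling to the sum of every listed gene moved the median log2 fold change over the table by 0.35, and leaving the 50 most abundant genes out of that sum moved it by 0.12. With the deposited scaling 3859 genes passed as higher and 3765 as lower, with the sum of every gene 9479 and 761 (61.4% and 4.93% of all genes), and with all but the 50 most abundant genes 5318 and 2245. All 8 genes kept their sign under each of these scalings, and Capn1 (−0.099, limma adjusted p = 0.039) and Capn3 (−0.18, adjusted p = 0.011) still passed as lower with the sum of every gene. The rises were larger there, at 0.65 for Capn2, 0.65 for Capns1 and 0.90 for Capn5. With quantile normalization the fold change was 0.31 for Capn5 (limma adjusted p = 0.043), −0.35 for Capn3 and 0.45 for Capns1. The number of the 8 genes called higher was 4 with edgeR and 4 with DESeq2 on the recovered reads, and the number called lower was 3 with each.

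Ratios of 2 transcripts within a library do not depend on a scaling by 1 factor per library, and 5 of them were tested with two-sided exact permutation tests over the 70 assignments, for which the smallest p is 0.029. The ratio of Capn2 to Capn1 was 0.870, 0.982, 1.08 and 1.01 in STIM1+/D84G muscle, against 0.564, 0.578, 0.597 and 0.596 in WT muscle. Reads of the 2 large subunits were thus near equal in number in STIM1+/D84G muscle. The log2 ratio was 0.75 higher in STIM1+/D84G than in WT muscle (SE 0.07, exact permutation p = 0.029, adjusted p = 0.036 over the 5 ratios). It was higher in 4 of 4 STIM1+/D84G libraries than in any WT library. This followed from Capn2 being higher and Capn1 lower in every STIM1+/D84G library than in any WT library. The smallest p was thus given in advance, and the test adds nothing to the values of the 2 genes.

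The ratio of the small subunit Capns1 to Capn1 averaged 1.38 ± 0.0395 in STIM1+/D84G and 0.823 ± 0.0406 in WT muscle (SD, n = 4 each), a log2 difference of 0.74 (SE 0.04, exact permutation p = 0.029, adjusted p = 0.036). Its p was also given in advance, since Capns1 was higher and Capn1 lower in every STIM1+/D84G library than in any WT library. The adjusted p values below count it and Capn2 to Capn1 among the 5 ratios. The inhibitor stood differently to each of its targets. Cast to Capn1 averaged 1.09 ± 0.0664 in STIM1+/D84G and 0.763 ± 0.0420 in WT muscle (SD, n = 4 each), a log2 difference of 0.51 (SE 0.06, exact permutation p = 0.029, adjusted p = 0.036). Its p was given in advance as well. In STIM1+/D84G muscle Cast was at least 3193 and Capn1 at most 3216. In WT muscle Cast was at most 3287 and Capn1 at least 4016. Any pairing of such values keeps the groups apart, so the test adds nothing to the values of Cast and Capn1. Cast to Capn2 averaged 1.11 ± 0.0512 in STIM1+/D84G and 1.31 ± 0.0744 in WT muscle (SD, n = 4 each), a log2 difference of −0.24 (SE 0.05, exact permutation p = 0.029, adjusted p = 0.036). This adjusted p is under 0.05 only because the ratios with a p given in advance are counted beside it. Adjusted with Capn3 to Capn1 alone, Cast to Capn2 would not pass. The groups did not overlap for these 4 ratios. With libraries paired by replicate number, each of the 5 ratios had the same sign in all 4 pairs and p = 0.125 in an exact sign-flip test, the smallest it can give. Without STIM1+/D84G replicate 3 or 4 the adjusted p of Cast to Capn2 was 0.071, with log2 differences of −0.21 and −0.23.

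The ratio of Capn3 to Capn1 did not pass the unpaired test. It was 1.34, 1.47, 1.39 and 1.26 in STIM1+/D84G muscle, against 1.498, 1.58, 1.39 and 1.32 in WT muscle. The ranges overlapped, and the log2 difference of −0.083 (SE 0.073, exact permutation p = 0.29) did not pass, which does not show that the ratio was unaltered. Within same-numbered libraries it was lower in STIM1+/D84G in 4 of 4, but in replicate 3 by very little (1.389 against 1.392). Whether the numbers pair mice is not stated.

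**Figure D3:**
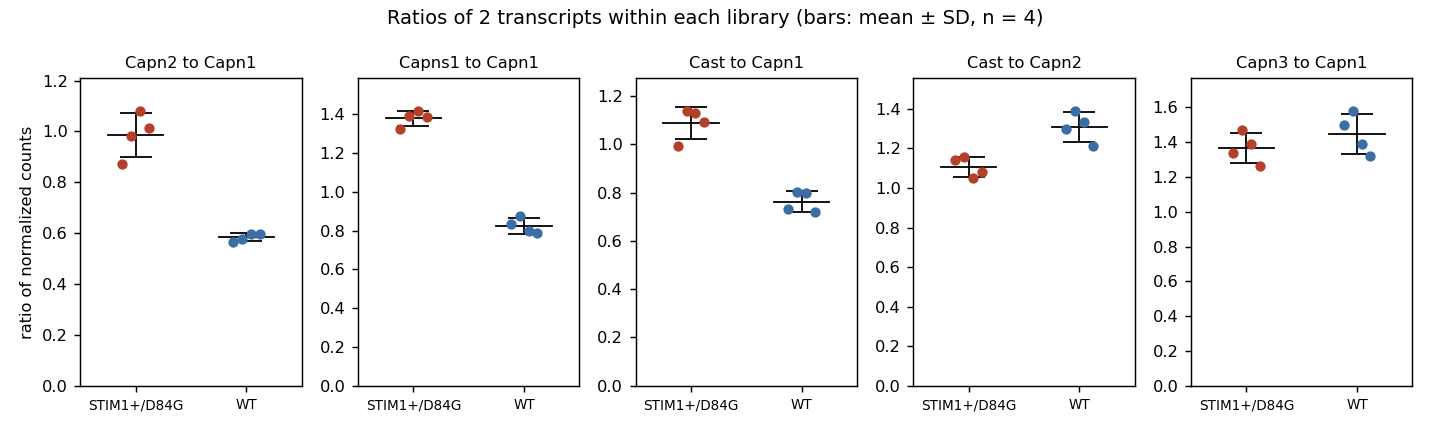
Ratios of the normalized counts of 2 transcripts within each library (vertical axes, starting at 0), STIM1+/D84G left and WT right; points are libraries and bars the mean ± SD (n = 4). Capn2, Capns1 and Cast to Capn1 are higher and Cast to Capn2 is lower in STIM1+/D84G libraries without overlap, while Capn3 to Capn1 overlaps.

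Levels can be compared between genes only per length of transcript. Per kb of the main annotated transcript, Capns1 was highest, with a mean level of 2598 normalized counts per kb in STIM1+/D84G and 2116 in WT muscle, and Capn3 came next with 1298 in STIM1+/D84G and 1875 in WT muscle. In STIM1+/D84G muscle the order went on with Cast at 1127, Capn1 at 986 and Capn2 at 920.4, and the ranges of Capn1 (952 to 1051) and Capn2 (868 to 975) overlapped there. In WT muscle it went on with Capn1 at 1344, Cast at 1078 and Capn2 at 745, without overlap between neighbours. Capn7 was at 405 in STIM1+/D84G and 524 in WT muscle. Capn6 was at 68.3 in STIM1+/D84G and 28.4 in WT muscle, and Capn5 was lowest, at 32.4 in STIM1+/D84G and 22.1 in WT muscle. Capn6 in WT muscle (25.9 to 34.0) was just above Capn5 (20.4 to 25.8). The order depends on the lengths used. Per kb of all annotated exons of a gene together, the WT mean of Capn1 was 1230.2 and that of Capn3 1185, and that of Cast was 273. By that measure the WT mean of Capn6 was 12.95 and that of Capn5 was 18.1, in the opposite order. The STIM1+/D84G means by it were 903 for Capn1 and 468 for Capn2, so their nearness held only per kb of the main transcript.

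**Figure D4:**
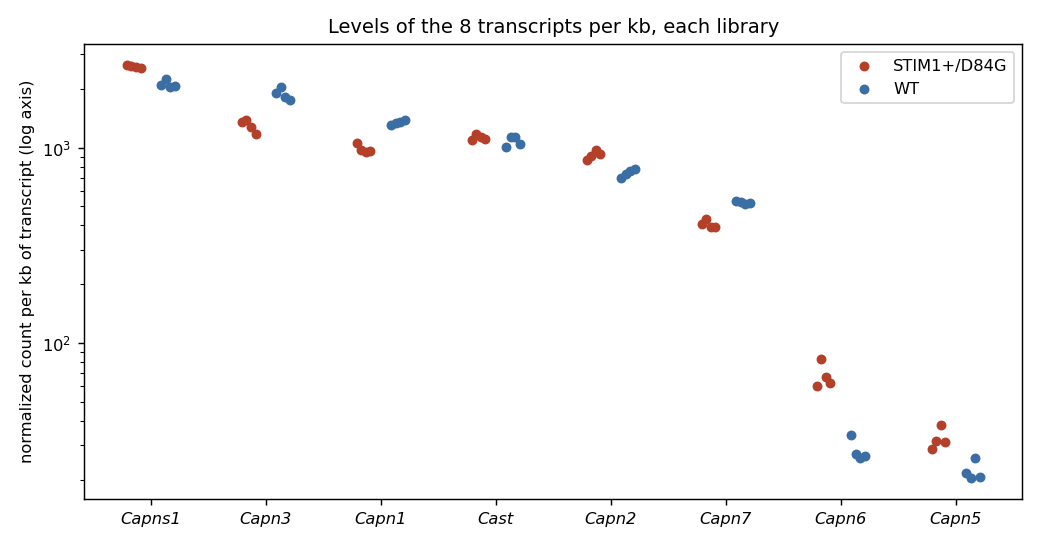
Level of each of the 8 transcripts as normalized counts per kb of main transcript (vertical log axis) in each library, STIM1+/D84G left and WT right for each gene. Genes run from the highest WT mean (Capns1, 2116) to the lowest (Capn5, 22.1), and Capn1 and Capn2 lie near each other in STIM1+/D84G libraries and apart in WT libraries.

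The levels of 6 genes, Capn1, Capn2, Capn3, Capn5, Capn6 and Capn7, were also summed, as a sum over genes and not a pool of 1 enzyme. The sum was 3768, 3821, 3699 and 3554 normalized counts per kb in STIM1+/D84G muscle, against 4498, 4686, 4484 and 4485 in WT muscle. The groups did not overlap, but the direction depended on the scaling. With libraries scaled to the sum of every listed gene the summed level was higher, at 4146 to 4247 in STIM1+/D84G and 3961 to 4121.5 in WT libraries. It was lower with the 50 most abundant genes left out of that sum and with quantiles. Shares of the sum do not depend on a factor per library, but they depend on the transcript lengths used. Per kb of all annotated exons, Capn1 (WT mean 1230.2) and not Capn3 (WT mean 1185) was the largest part. The shares below are per kb of the main transcript. Capn3 made up 35.0% ± 1.48 of this sum in STIM1+/D84G and 41.3% ± 1.92 in WT muscle, and Capn2 24.8% ± 1.65 in STIM1+/D84G and 16.4% ± 0.900 in WT muscle (SD, n = 4 each). Capn1 made up 26.6% ± 1.11 in STIM1+/D84G and 29.6% ± 0.936 in WT muscle. Capn7, Capn6 and Capn5 made up 10.9%, 1.84% and 0.874% in STIM1+/D84G muscle, against 11.5%, 0.625% and 0.488% in WT muscle.

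The rest of the calpain family was not listed or did not pass. Of 8 further calpain genes, Capn10, Capn11 and Solh (also called Capn15) were in the table, and none of the 3 passed. Capn10 had 195, 150.4, 179 and 149.8 normalized counts in STIM1+/D84G muscle, against 179.5, 172, 185 and 166 in WT muscle. Solh, the mouse counterpart of the fly small optic lobes gene, averaged 232 ± 7.20 in STIM1+/D84G and 229.6 ± 27.7 in WT muscle (SD, n = 4 each). Capn11, known from testis, had 107, 11.8, 4.82 and 1.76 normalized counts in STIM1+/D84G muscle, against 66.3, 7.23, 4.34 and 43.0 in WT muscle. Its 3 highest libraries came from both genotypes, its reads numbered between 2 and 111 per library, and no direction can be read from them. The log2 fold changes of Capn10 (−0.068) and Solh (0.024) turned sign under other scalings, and that of Capn11 (−0.75, SE 1.19) with the count tests. With libraries scaled to the sum of every gene, Capn10 (0.28, limma adjusted p = 0.031) and Solh (0.37, adjusted p = 0.0038) passed as higher.

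Targets and partners of the calpains were taken from 2 lists, and each went both ways. Of 14 partners and substrates named for calpain 3, 6 were higher, 7 were lower and Dysf, the membrane repair protein dysferlin, did not pass, against 25.0% of all genes called higher and 24.4% called lower (median log2 fold change −0.14, against 0.013 over all genes). When libraries were scaled to the sum of every gene, 7 were higher and 4 lower, against 61.4% and 4.93% of all genes. The largest rises were those of Ankrd2, a stretch-responsive protein that binds titin beside calpain 3 (1.20, SE 0.13), the membrane linker Ezr (0.95, SE 0.15), the actin crosslinker Flnc (0.75, SE 0.08) and Ahnak (0.41, SE 0.06). The largest falls were those of Ryr1, the Ca2+ release channel (−0.84, SE 0.07), the glycolytic enzyme Aldoa (−0.73, SE 0.08), Ttn, the titin that anchors calpain 3 (−0.70, SE 0.11), and Cmya5, the myospryn gene (−0.69, SE 0.08). Their limma adjusted p values lay at or below 0.00043. Ankrd2 had 3399, 5066, 5004 and 5470.4 normalized counts in STIM1+/D84G muscle, against 2071, 1887, 2292 and 1884 in WT muscle, with the lowest STIM1+/D84G library in replicate 1. Quantile scaling gave Ttn a fold change of 0, since it holds the same rank in all 8 libraries.

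Of 24 substrates named for the classical calpains, 6 were higher, 9 were lower and 9 did not pass (median log2 fold change 0.021). The share called higher is that of all genes, 25.0%, and 24.4% of all genes were called lower. Under the same change of scaling 15 were higher and 6 lower, against 61.4% and 4.93% of all genes. Both lists hold Ttn, Ryr1, Flnc and the talin Tln1. Beyond these, the largest rises were those of the apoptosis proteins Bid (limma adjusted p = 0.0044) and Casp12 (0.85, SE 0.11, adjusted p = 7.2e-05) and of the intermediate filament Vim (0.88, SE 0.06, adjusted p = 1.4e-06). The largest falls were those of the fast troponin T Tnnt3 (−0.78, SE 0.09, limma adjusted p = 4.9e-05) and Jph2, which holds the junction of T-tubule and sarcoplasmic reticulum (−0.65, SE 0.08, adjusted p = 6.3e-05). Bid had the largest fold change of the list from a low level, between 33.7 and 46.7 normalized counts in STIM1+/D84G and between 9.21 and 24.0 in WT muscle. Quantile scaling gave Tnnt3, too, a fold change of 0. These values are of transcripts and say nothing of cleavage.

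**Figure D5:**
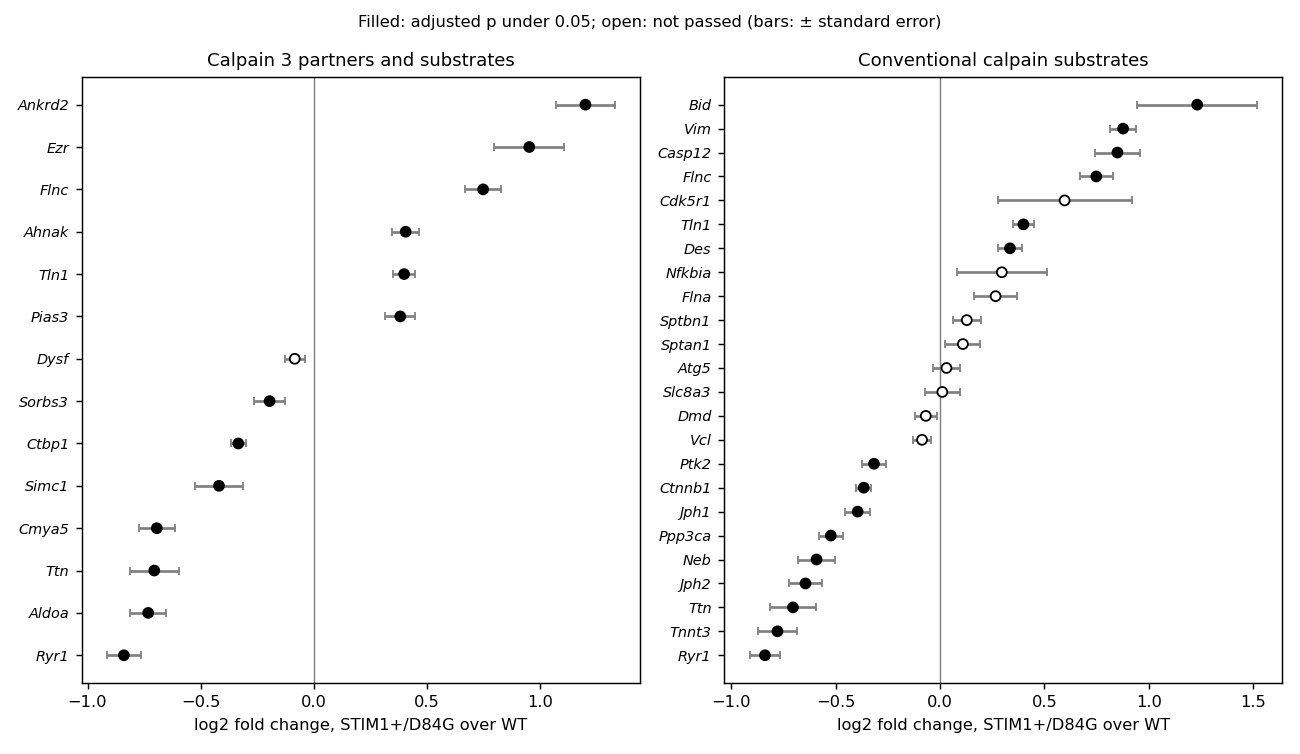
Log2 fold change of STIM1+/D84G over WT (horizontal axes, ± standard error) for 14 calpain 3 partners and substrates on the left and 24 substrates of the classical calpains on the right, sorted by value. Filled points passed (limma adjusted p under 0.05), and both panels have filled points on each side of 0, from Ryr1 at −0.84 to Ankrd2 at 1.20 on the left and from Ryr1 to Bid on the right.

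Markers of fibers and of other cell types moved with the genotype, beside all of these results. Markers of muscle fibers were present at high levels in all libraries, with 4 of 12 higher and 7 of 12 lower, against 25.0% and 24.4% of all genes, and Myh4, the type IIB myosin, the most abundant (log2 fold change −1.05, SE 0.16). Their summed level was between 4421937 and 4979590 normalized counts in STIM1+/D84G and between 7299502 and 7691416 in WT libraries. Of 12 markers of developing and regenerating fibers, 11 were higher and none lower, H19 being the most abundant, with summed levels of 31117 to 38560.3 in STIM1+/D84G and 20431 to 26774 in WT libraries. All 12 macrophage markers were higher (7953 to 13772 in STIM1+/D84G and 2955 to 3626 in WT libraries), as were all 8 of fibro-adipogenic progenitors (59747 to 71877 in STIM1+/D84G and 30243 to 47033 in WT libraries). Lyz2 and Dcn were the most abundant of them, with log2 fold changes of 1.95 (SE 0.15) and 0.66 (SE 0.07).

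Of the other cell types, set against the same 25.0% and 24.4% of all genes, markers of endothelial cells were lower for 2 of 8 and higher for none, with summed levels of 8385 to 9931 normalized counts in STIM1+/D84G and 9317 to 10833 in WT libraries and Cdh5 the most abundant. Of 6 smooth muscle and pericyte markers, led by Rgs5, 1 was higher (12397 to 15829 in STIM1+/D84G and 13308 to 14659.6 in WT libraries). Both of these ranges overlapped between the genotypes, as did those of the satellite cell, adipocyte and lymphocyte markers given next. Of 5 satellite cell markers, led by Cdh15, 2 were higher (1137 to 1209 in STIM1+/D84G and 1014 to 1258 in WT libraries), and of 5 adipocyte markers, led by Fabp4, 1 was higher (4686 to 6096 in STIM1+/D84G and 3709.6 to 5643 in WT libraries). Of 5 tendon markers, led by Fmod, 2 were higher (13865 to 15876 in STIM1+/D84G and 6753 to 11962 in WT libraries), and all 3 red blood cell markers in the table, led by Hbb-b1, were higher (1451 to 2356 in STIM1+/D84G and 1245 to 1424 in WT libraries). Neutrophils had 1 of 5 markers in the table, Retnlg, which was higher, and lymphocytes 3 of 7, led by Cd4, of which 2 were higher. Their summed levels were low, at most 14.1 for neutrophils and 32.1 for lymphocytes in STIM1+/D84G libraries and at most 3.25 and 23.9 in WT libraries. No marker in the table was at 0 in all libraries of a genotype. The part of these cells in the values of Capn2, Capns1, Capn5 and Capn6 was not tested, nor was that of the fiber markers in the values of Capn1, Capn3 and Capn7.

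Some exons of the 8 genes share bases with other genes in the table, and whether reads were counted by strand is not stated. Ganc lies on the strand of Capn3 and was lower too (log2 fold change −0.25, limma adjusted p = 0.017), and its level was 1229 ± 79.3 normalized counts in STIM1+/D84G and 1461 ± 154 in WT muscle (SD, n = 4 each). On opposite strands, Sh3bp5 beside Capn7 (−0.31, adjusted p = 0.00027) and Erap1 beside Cast (−0.32, adjusted p = 0.00016) were lower, and a low antisense gene over Capn1 did not pass (−0.28, adjusted p = 0.31). Reads in bases shared on the same strand cannot be assigned to either gene. On opposite strands they can be assigned only if reads were counted by strand.

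A number in the column names splits the libraries, with STIM1+/D84G replicate 1 and WT replicates 1 and 2 on one side and the other 5 libraries on the other, and what it stands for is not stated. Within the 5 libraries, the log2 fold change was −0.50 for Capn1, 0.28 for Capn2, 0.32 for Capns1, 0.066 for Cast, −0.48 for Capn3, 0.54 for Capn5, 1.43 for Capn6 and −0.36 for Capn7. Within the other 3, it was −0.34 for Capn1, 0.27 for Capn2, 0.29 for Capns1, 0.040 for Cast, −0.54 for Capn3, 0.45 for Capn5, 0.99 for Capn6 and −0.38 for Capn7. Each of the 8 genes had the same sign on both sides.

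The genes whose pattern over the 8 libraries came nearest were sought for Capn3, Capn6 and Capn5 among 10147 genes with a mean of at least 100, by the root mean square difference of log2 values centred on each gene's mean. For Capn3 they were Mbd5 (0.023), the ATP-gated channel P2rx6 (0.027) and Sypl (0.035), against a median of 0.27 over all genes compared. For Capn6 they were the collagen prolyl hydroxylase Leprel1 (0.11), the cell cycle inhibitor Cdkn1c (0.11) and Phlda1 (0.11), against a median of 0.69. For Capn5 they were Marveld1 (0.043), Fam102b (0.057) and the kinase Fyn (0.065), against a median of 0.36. Mbd5 averaged 704 ± 55.0 normalized counts in STIM1+/D84G and 990.4 ± 61.4 in WT muscle, and Cdkn1c 969 ± 60.3 in STIM1+/D84G and 433 ± 50.2 in WT muscle (SD, n = 4 each). The nearest pattern of Capn6 was farther from it than that of Capn3, and the measure is a description over 8 libraries of 2 genotypes.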

How the data were processed

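RNA was sequenced from GST muscle of 4 STIM1+/D84G and 4 WT mice. Per the methods of the study, libraries were made with a stranded mRNA kit and read as paired ends. Per the labels, a SMARTer kit was used and the genome build was mm10. The aligner, the counter and the annotation are not given in the sources used here. The signal values deposited by the authors are reads of a gene divided by a size factor of the library, with no scaling by gene length. Divided by the value of 1 read (0.783 to 0.964 in STIM1+/D84G and 1.02 to 1.21 in WT libraries), 100% of them were whole within 0.01. The ratio (fold), log2, score and p-value columns deposited by the authors hold their own comparison of the genotypes and were not used.

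All 15433 genes entered a linear model on log2 of normalized count plus 0.1 (limma 3.58.1, moderated with an intensity trend, R 4.3.3), without a filter (smallest mean 1.10). The p values were adjusted over all genes by Benjamini and Hochberg. Fold changes on this scale understate the change of low genes. edgeR 4.0.16 and DESeq2 1.42.0 were run on the recovered reads. Ratios were compared by exact permutation. Samples were grouped by the labels, and SAX was read as STIM1+/D84G from the title of the series. The study gives 4 female mice per genotype, and the 4 libraries of a genotype were read as 1 per mouse. Positions, transcript lengths and coding sequences came from GENCODE vM21 and promoter windows from RefSeq. Tables were made with pandas 2.3.3 and numpy 2.4.6 in Python 3.11.15, and figures with matplotlib 3.10.9.

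The genes, the lists, the ratios and the rule for named genes were chosen with earlier results of these data known. Named are the 8 genes, other calpain genes in the table, up to 4 genes per direction of each partner and substrate list, the most abundant gene of each marker list given and the 3 nearest patterns of Capn3, Capn6 and the next largest change. Dysf, Tln1 and the genes with overlapping exons were added after their values were seen. The result of 1 marker list is not reported here. With group means taken out, same-numbered libraries had correlations of 0.213, 0.161, 0.150 and 0.123 over 10155 genes. STIM1+/D84G replicates 1, 3 and 4 correlated more with another number (0.371 with WT replicate 2, 0.222 with WT replicate 4 and 0.188 with WT replicate 3). Since every same-numbered correlation was over 0.1, the replicate number was used as a block in an alternative. The others were pseudocounts of 1 and 0.01, a minimum mean of 10, 4 other scalings, the count tests, the number in the column names as a term and leaving out each library.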

Additional observations from a re-analysis of the deposited data

Results flagged for a closer look

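Libraries far from the other 3 of their genotype were sought with Dixon's test in 90 groups of 4, and chance alone would mark about 1 in 20 groups; 4 were found. Capn6 had 121 normalized counts in WT replicate 1, against 92.2 to 96.4 in the other WT libraries. Without WT replicate 1 and without any other library the log2 fold change of Capn6 stayed between 1.17 and 1.36. Capn11 had 107 normalized counts in STIM1+/D84G replicate 1, against 1.76 to 11.8 in the other STIM1+/D84G libraries. Flnc, a target named for both calpain 3 and the classical calpains, had 53801 normalized counts in STIM1+/D84G replicate 1, against 67123 to 67984 in the other STIM1+/D84G libraries. The summed level of the 3 lymphocyte markers was 23.9 normalized counts in WT replicate 3, against 3.43 to 6.14 in the other WT libraries.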

How the results depend on the processing

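Under 19 alternatives the signs of all 8 genes were kept, and Capn1, Capn2, Capn3, Capn5, Capn6 and Capns1 passed in each. When libraries were scaled to the sum of every listed gene, Capn7 did not pass (−0.024), Cast passed (0.41), and 9479 genes were higher and 761 lower. With the 50 most abundant genes left out of that sum Cast passed (0.19) and 2245 genes were lower, and with quantiles Cast passed (0.21). Of genes that did not pass, Capn10 turned to 0.28 (sum of every gene, adjusted p = 0.031) and 0.056 (50 genes left out), Solh passed at 0.37 (sum of every gene, adjusted p = 0.0038) and turned to −0.091 (quantiles) and −0.013 (number in the column names), and Capn11 to 0.026 (edgeR) and 0.047 (DESeq2). Without each library in turn Capn11 lay between −1.87 and 0.075, turning sign without STIM1+/D84G replicate 4, Solh between −0.054 and 0.090, turning sign without WT replicate 1, and the log2 ratio difference of Cast to Capn2 between −0.28 and −0.21 with an adjusted p of at most 0.071. edgeR called 3953 genes higher and 3608 lower, and DESeq2 3522 and 3487. The cause of these differences was not tested.

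With the replicate block no call of the 8 genes changed (Cast 0.065, limma adjusted p = 0.17). For the ratios the differences are the same by construction, and sign flips over 4 pairs gave p = 0.125, the smallest this exact test can give, for 0.75 (Capn2 to Capn1), 0.74 (Capns1 to Capn1), 0.51 (Cast to Capn1), −0.24 (Cast to Capn2) and −0.083 (Capn3 to Capn1), so none passes that test. The log2 difference of the summed level of Capn1, Capn2, Capn3, Capn5, Capn6 and Capn7 was −0.29. It was 0.058 with the sum of every gene, −0.17 with 50 genes left out and −0.15 with quantiles. These settings were chosen for it after seeing the data. Of the 8 genes, Capn5 and Capn6 have the fewest reads.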
